A study of Mus musculus with 10 samples.

Results

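The genes described here encode BTB proteins of the families that hand substrates to cullin 3. They were taken from the annotated names: every gene whose symbol begins with Klhl, Kbtbd or Kctd followed by a digit, without pseudogenes, together with Keap1, Spop and Spopl. Of the 22891 genes in the table of whole-ovary expression, 68 met this rule: 36 Klhl, 19 Kctd and 10 Kbtbd genes and the 3 added by name. Another 3 genes of these names, Kctd4, Kctd8 and Kctd19, were not analysed here. One of the 68, Kbtbd8os, has a fitting symbol but is an opposite-strand transcript beside Kbtbd8 and encodes no adaptor.

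A cullin 3 ligase is built from the scaffold CUL3, the RING protein RBX1 and a BTB protein that serves as adaptor and substrate receptor at once. The BTB domain binds the scaffold, and a second domain (kelch repeats in KLHL and KBTBD proteins, a MATH domain in SPOP) holds the protein to be ubiquitinated. The scaffold becomes fully active when the ubiquitin-like protein NEDD8 is attached to it, a step that begins with the NEDD8-activating enzyme, of which UBA3 is the catalytic subunit. Not every family member works with CUL3: KCTD12 and KCTD16 are auxiliary subunits of GABA-B receptors, and KCTD1 and KCTD15 bind AP-2 transcription factors.

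The series holds 10 RNA-seq libraries of whole ovary, 5 labelled control and 5 labelled Uba3 cKO, from mice aged 3 weeks without hormonal stimulation. All 10 were of the strain given as C57/Bl6/N;129SvEv7 strain. The labels give neither the Cre line nor the cells in which Uba3 was deleted, and they do not say that each library came from a different animal, so p-values reflect only how these libraries scatter, which may be technical. Values are the deposited log2 normalized levels, and each log2 unit is a factor of 2.

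The targeted transcript did not separate the labels. Uba3 read 10.17, 10.09, 9.88, 10.37 and 10.09 log2 units in control replicates 1 to 5 and 10.12, 10.13, 10.12, 10.03 and 10.22 in the Uba3 cKO replicates. The groups overlapped, and their difference was 0.0032 log2 units (SE 0.081, exact two-sided permutation p = 1, n = 5 per group, where the smallest possible p is 0.00794). The transcript level in whole ovary therefore does not check the genotype labels, and in bulk tissue fewer cells of a type cannot be told apart from less RNA per cell. Oocyte markers were present in all 10 libraries: Zp3, a zona pellucida gene, lay between 11.2 and 12.2 log2 units.

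Sequence around the start sites is shown for 4 members that the results below turn on: Spop, high for its length and steady across libraries, Klhl11, the member with the widest spread, Kctd11, the member with the smallest p between groups, and Klhl41, a skeletal muscle gene that is barely present in ovary. Each run is the 250 bases upstream of the RefSeq start, 5′ to 3′ on the gene's strand, in build GRCm38.p6, with CpG dinucleotides in capitals. The positions are chr11:95413833-95414082 on the + strand for Spop, chr11:100472783-100473032 on the - strand for Klhl11, chr11:69880986-69881235 on the - strand for Kctd11 and chr2:69669870-69670119 on the + strand for Klhl41.
Spop: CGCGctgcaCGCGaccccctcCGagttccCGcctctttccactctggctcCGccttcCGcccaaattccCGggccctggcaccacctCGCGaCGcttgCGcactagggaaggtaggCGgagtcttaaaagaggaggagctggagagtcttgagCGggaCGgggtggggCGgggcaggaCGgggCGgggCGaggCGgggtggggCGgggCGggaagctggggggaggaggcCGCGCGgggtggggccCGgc
Klhl11: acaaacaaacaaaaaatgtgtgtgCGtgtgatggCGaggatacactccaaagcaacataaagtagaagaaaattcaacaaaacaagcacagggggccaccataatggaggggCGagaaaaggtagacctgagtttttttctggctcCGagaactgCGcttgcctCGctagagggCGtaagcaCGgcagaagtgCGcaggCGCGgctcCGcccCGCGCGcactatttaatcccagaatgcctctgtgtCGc
Kctd11: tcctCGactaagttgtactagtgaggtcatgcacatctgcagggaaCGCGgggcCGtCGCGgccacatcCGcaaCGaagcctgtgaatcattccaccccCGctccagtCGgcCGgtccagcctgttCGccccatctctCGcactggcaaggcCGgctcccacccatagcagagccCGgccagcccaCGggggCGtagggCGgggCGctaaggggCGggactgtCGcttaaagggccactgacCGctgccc
Klhl41: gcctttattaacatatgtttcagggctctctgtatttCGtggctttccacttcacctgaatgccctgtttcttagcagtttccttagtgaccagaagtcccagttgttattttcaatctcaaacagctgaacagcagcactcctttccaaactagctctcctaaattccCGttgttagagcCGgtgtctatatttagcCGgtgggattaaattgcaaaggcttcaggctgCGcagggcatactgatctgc
These runs hold 27 CpG in Spop, 16 in Klhl11, 22 in Kctd11 and 5 in Klhl41.

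RefSeq promoters, here 300 bases each from 250 before to 50 after the start, were found for 53 of the 68 genes, with 72 promoters in all. Their median CpG number was 21, against 7 for all 32851 mouse promoters in the same table. The 40 genes with a mean of at least 10 CpG per promoter had a median level of 7.06 log2 units per kilobase of exon, and 38 of them passed the low-value filter (a mean over all libraries of 3.32 log2 units, which is 10 unlogged). The 13 genes below 10 CpG had a median of 3.20, and 10 of them passed. CpG-poor members included Klhl40, Klhl41 and Kbtbd13 of skeletal muscle, Klhl10 of spermatids and Klhl6 of B cells. They also included Klhl31, Klhl3 and Klhl4, at 6.13, 4.90 and 4.48 log2 units per kilobase. The division was not clean, since Klhl13 averaged 8.40 CpG at a level of 7.80 per kilobase. Kbtbd12, listed with the skeletal muscle genes, had 32 CpG at -0.48. Over the 53 genes the Spearman correlation of CpG number and level per kilobase was 0.39, given as a description because the genes share the 10 libraries. Of the motifs searched on both strands, TATAAA occurred in 9.72% of member promoters and 13.6% of all. TGACNNNGC, the core of the antioxidant response element, occurred in 16.7% and 12.4%. Another motif, an NRF1 site, was searched at first, and its shares are not given here. Member promoters were richer in CpG than the rest, and the part of base composition in these shares was not tested.

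Of the 68 genes, 60 passed the filter. The 8 that did not were Klhl1, Klhl14, Klhl34, Klhl38, Klhl41, Kbtbd12, Kctd16 and Kbtbd8os, whose means lay between 0.48 (Kbtbd8os) and 3.06 (Klhl14) log2 units in these ovaries. Among the 60, levels divided by exon length spanned from 1.81 (Kbtbd13) to 10.93 (Kctd14) log2 units per kilobase. After Kctd14 came Spop at 9.09, Klhl9 at 8.70, Klhl8 at 8.45, Klhl7 at 8.23, Kbtbd2 at 8.21, Kctd5 at 8.16 and Keap1 at 8.06. From Klhl7 to Keap1 each gap between neighbours was smaller than 1 SD of at least 1 of the pair over the 10 libraries. This SD describes single libraries and not the error of a mean, and the order of neighbours was not tested. Exon lengths came from a GRCm38 annotation and counts from GRCm39, so a level per kilobase also depends on which transcripts were used.

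**Figure D1:**
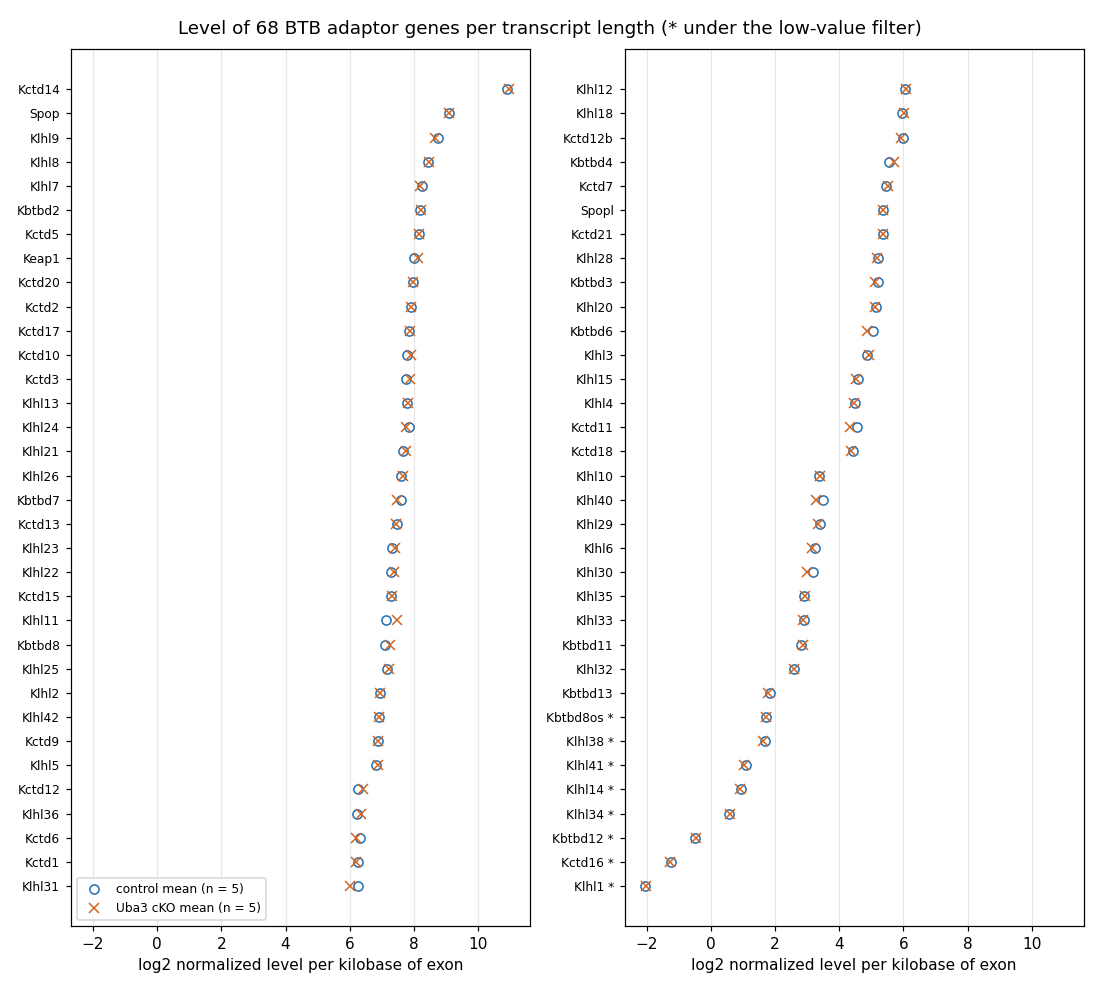
Level of the 68 genes in log2 normalized units per kilobase of exon (horizontal axis), ordered from highest to lowest over both panels, with circles for the mean of 5 control and crosses for the mean of 5 Uba3 cKO libraries and asterisks for the 8 genes under the low-value filter. Kctd14 stands apart at 10.93, and circles and crosses lie close together along the whole scale.

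Kctd14 was the member with the highest level in ovary. Its log2 level was 12.18, 12.70, 12.08, 12.10 and 12.21 in control replicates 1 to 5 and 12.53, 12.17, 12.22, 12.45 and 12.25 in the Uba3 cKO replicates. Control replicate 2 was highest and the groups overlapped. Spop, receptor for GLI transcription factors and many other substrates, was among the steadiest members, with an SD of 0.0748 over the 10 libraries. Its values were 10.94, 10.74, 10.65, 10.72 and 10.72 in controls and 10.73, 10.70, 10.79, 10.75 and 10.76 in Uba3 cKO. Its close relative Spopl stood at 5.37 log2 units per kilobase against 9.09 for Spop.

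No member differed between the genotypes after adjustment over all genes. By limma with Benjamini-Hochberg adjustment, 0 of 60 members and 0 of 15629 genes (0%) had an adjusted p under 0.05, and the smallest adjusted p of a member was 0.9999. At an unadjusted p under 0.05 stood 1 of 60 members (1.67%) against 1.79% of all genes. In 0 members did the 5 control and 5 Uba3 cKO values fail to overlap, against 0.320% of all genes. The mean was higher in Uba3 cKO for 33 members and lower for 27, with a median difference of 0.01 log2 units and 0.00 over all genes tested. Differences ran from -0.25 (Klhl31) to 0.35 (Klhl11). The whole 95% interval of a member stayed inside ±0.25 log2 units for 20 of them, inside ±0.5 for 56 and inside ±1 for all 60. These intervals bound the differences and do not show equality.

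**Figure D2:**
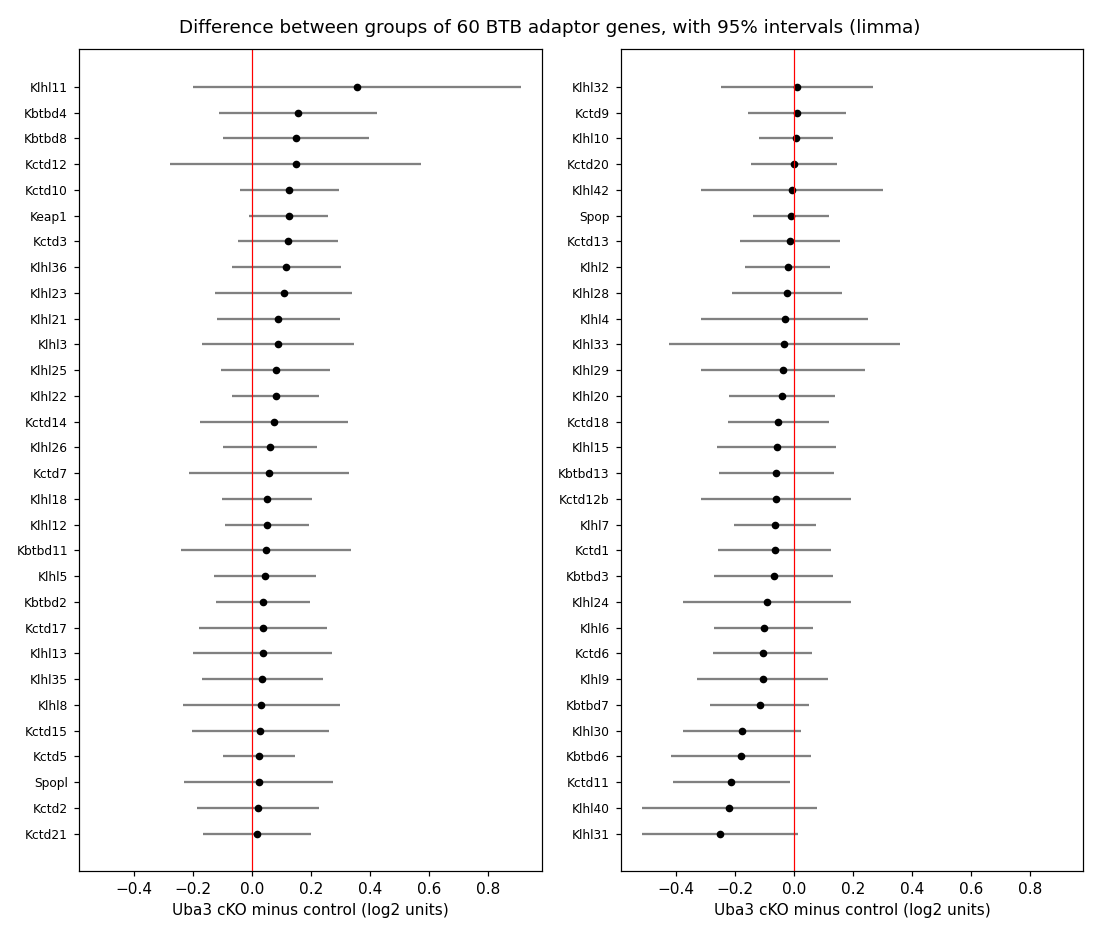
Difference in mean log2 level, Uba3 cKO minus control, of the 60 members that passed the filter, with points for the limma estimate and lines for its 95% interval (n = 5 per group), members with higher means in the left panel. Klhl11 has the widest interval, -0.20 to 0.91, and Kctd11 is the one member whose interval leaves out 0.

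KCTD6, KCTD11 and KCTD21 form the KCASH group, which brings the histone deacetylase HDAC1 to CUL3 and dampens Hedgehog signalling. Kctd11 had the smallest p of any member. It measured 6.24, 6.18, 6.41, 6.28 and 5.98 log2 units in control replicates 1 to 5 and 6.03, 5.91, 5.99, 6.15 and 5.95 in Uba3 cKO. The 4 highest values were controls, but control replicate 5 lay inside the Uba3 cKO range. The difference was -0.21 (SE 0.092, 95% interval -0.41 to -0.02, limma unadjusted p = 0.037, adjusted p = 0.9999). When each library was left out in turn the unadjusted p ran from 0.0086 to 0.087. Kctd6 differed by -0.11 (-0.06 without control replicate 3) and Kctd21 by 0.02, neither past the test. Hdac1 differed by 0.03 (SE 0.055) and the Hedgehog transcription factor Gli2 by 0.01 (SE 0.092). Gli3, another Hedgehog transcription factor and the listed substrate with the smallest p, had 7.64 ± 0.193 in control and 7.89 ± 0.285 in Uba3 cKO (SD, n = 5), with a limma unadjusted p of 0.090 and an adjusted p of 0.9999. Over the 10 libraries and 9207 genes with a mean of at least 8 log2 units, the genes whose pattern was most like that of Kctd11 were Lrrc75a (Pearson r = 0.89), Rnase4 (0.87) and Ralgds (0.86), given as a description.

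KEAP1 holds the transcription factor NRF2, encoded by Nfe2l2, for destruction until oxidants or electrophiles modify it. Keap1 stood at 10.33, 10.29, 10.18, 10.11 and 10.25 log2 units in controls and 10.32, 10.29, 10.39, 10.30 and 10.48 in Uba3 cKO. Both groups contained values from 10.29 to 10.33 and thus overlapped. The difference of 0.12 had an SE of 0.062, a 95% interval of -0.01 to 0.26 and a limma adjusted p of 0.9999 (unadjusted 0.068). Nfe2l2 differed by -0.08 with a 95% interval of -0.21 to 0.05. For Keap1, as for Kctd10 below, an annotated gene overlaps on the opposite strand (Gm16754 and Myo1h). Other members named below share this, among them Klhl21 (Gm9768, 817 bases), Klhl9 (Gm26566, 661 bases) and Klhl40 (Gm47108, 540 bases). Whether reads were counted by strand is not given in the sources used here.

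None of the adaptors known from skeletal muscle passed the test, and 6 of the 7 had mean levels of 4.72 log2 units or less, Klhl31 being the exception at 8.83. KLHL40, KLHL41 and KBTBD13 are muscle proteins mutated in nemaline myopathy. Of 7 genes in this group 4 passed the filter, and all 4 had lower means in Uba3 cKO: Klhl31 by -0.25, Klhl40 by -0.22, Klhl30 by -0.18 and Kbtbd13 by -0.06 log2 units. The median of the 4 was -0.20, beside 0.00 over all genes tested, of which 7790 of 15629 had lower means. Under the filter, Klhl38 and Klhl41 had lower means in Uba3 cKO and Kbtbd12 a higher mean. Klhl31 was the most abundant, with 8.68, 8.92, 9.18, 8.94 and 9.06 in controls and 8.78, 8.89, 8.83, 8.75 and 8.28 in Uba3 cKO. The lowest value, in Uba3 cKO replicate 5, stood apart from the other 4 of its group. Without that library the difference of Klhl31 was -0.14 in place of -0.25, and with all 10 its limma unadjusted p was 0.061 (adjusted 0.9999). Skeletal muscle markers were near the bottom of the scale: of 6 found, 2 passed the filter (Mylpf and Myh2), with a mean level of 4.43 to 4.65 in controls and 4.36 to 4.60 in Uba3 cKO. The defining markers Acta1 and Ckm averaged 0.87 and 1.86 log2 units.

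Adaptors of cell division were well represented. KLHL9, KLHL13 and KLHL21 act on the kinase Aurora B, and KLHL22 on the kinase PLK1. All 5 members of this group passed the filter, with levels of 6.92 (Klhl42) to 8.70 (Klhl9) log2 units per kilobase. Their differences ran from -0.11 (Klhl9) to 0.09 (Klhl21), and none passed the test. Each end rested on 1 library: Klhl9 differed by -0.04 without Uba3 cKO replicate 1 and Klhl21 by 0.03 without Uba3 cKO replicate 3. Klhl42 varied most, with an SD of 0.253 over the 10 libraries and a range from 9.08 in Uba3 cKO replicate 1 to 9.97 in Uba3 cKO replicate 4. Aurkb itself differed by 0.09 (SE 0.056, limma adjusted p = 0.9999).

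In the other role groups no member passed the test either. KCTD10 and KCTD13 carry the small GTPase RhoA to CUL3. Kctd10 differed by 0.12 (SE 0.078) and Kctd13 by -0.01 (SE 0.079). Without control replicate 3 the difference of Kctd10 was 0.06, that of Kctd3 0.04 in place of 0.12 and that of Klhl40 -0.15 in place of -0.22. Kctd2, Kctd5 and Kctd17, which encode closely related proteins, differed by 0.02, 0.02 and 0.04. KLHL2 and KLHL3 control WNK kinases and with them salt transport, and Klhl2 differed by -0.02 and Klhl3 by 0.09 (0.03 without Uba3 cKO replicate 4). Of the genes for GABA-B receptor subunits, Kctd12 differed by 0.15 (SE 0.20, and 0.02 without Uba3 cKO replicate 4) and Kctd12b by -0.06 (SE 0.12). KBTBD6 and KBTBD7 work together on the Rac1 activator TIAM1, and both had lower means in Uba3 cKO, by -0.18 (SE 0.11) and -0.12 (SE 0.078). Klhl36 and Kbtbd8 had higher means, by 0.12 (SE 0.085) and 0.15 (SE 0.11), and that of Kbtbd8 was 0.09 without control replicate 4. None of these passed the test.

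The rest of the machinery gave no call either. All 26 listed genes of the cullin 3 core and the neddylation pathway passed the filter, 16 with higher and 10 with lower means, and 0 had an unadjusted p under 0.05, with a median difference of 0.01. The 2 with the smallest p, Rbx1 (the RING subunit) and Senp8 (the NEDD8 protease), differed by -0.10 (SE 0.076) and -0.08 (SE 0.065). Cul3 had 11.28 ± 0.197 log2 units in control and 11.21 ± 0.131 in Uba3 cKO (SD, n = 5). Among 20 other BTB genes, 7 had higher and 13 lower means and 0 were called, with Rhobtb2 at -0.11 and Btbd10 at 0.06. Among 25 listed substrates of cullin 3 ligases that passed the filter, 15 had higher and 10 lower means, and 0 were called.

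One control library departed from the rest in many members. Control replicate 3 held the lowest of the 10 values for 23 of the 60 members (38.3%), against 25.5% of all genes tested. The median deviation of the members in this library from their mean over the other 9 libraries was -0.10 log2 units. Klhl11 showed it most: 8.82, 8.54, 7.25, 8.58 and 8.73 in control replicates 1 to 5 and 8.28, 8.86, 8.62, 9.06 and 8.87 in Uba3 cKO, a 3.49-fold range. Its 2 lowest values were control replicate 3 and Uba3 cKO replicate 1. The Klhl11 difference of 0.35 (SE 0.26) became 0.07 without control replicate 3. Klhl13, Spopl, Kctd3 and Kctd20 were also lowest there. Over the 60 members the Spearman correlation of the deviation in this library with log2 exon length was -0.34, and it lay between -0.22 and 0.25 in the other 9. Pearson r was -0.19 in this library and between -0.23 and 0.26 in the other 9, so by that measure it did not stand apart. The part of length or RNA quality in these values was not tested.

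**Figure D3:**
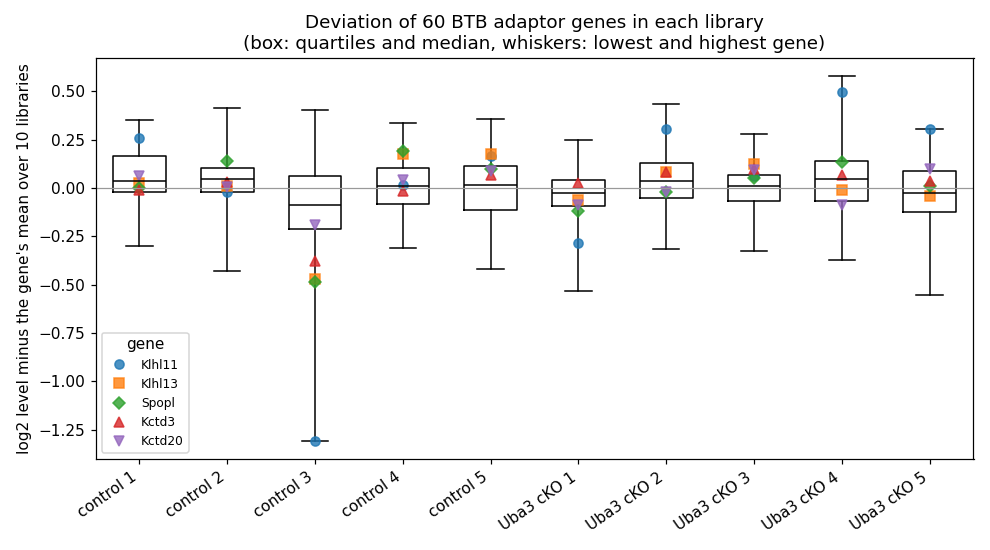
Deviation of the 60 members from their own mean over 10 libraries, in log2 units, for each library (boxes: median and quartiles, whiskers: lowest and highest member), with 5 members drawn as points. All 5 sit lowest in control replicate 3, where Klhl11 is at 7.25 against 8.54 to 8.82 in the other controls.

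Libraries differed in their oocyte marker RNA, and 1 member, Klhl8, was related to it past the adjusted threshold. The mean of 22 oocyte markers was 9.91 ± 0.313 log2 units in control and 9.88 ± 0.373 in Uba3 cKO (SD, n = 5) and spanned a 1.86-fold range. It lay between 9.37 and 9.62 in 4 libraries, at 9.88 in control replicate 5 and between 10.07 and 10.26 in the other 5, with both groups at each end. Klhl8 followed it most closely, with 10.07, 10.39, 10.39, 10.005 and 10.33 in control replicates 1 to 5 and 10.44, 10.40, 10.09, 10.51 and 9.89 in Uba3 cKO. Its lowest 4 values belonged to the 4 libraries with the least oocyte marker RNA. Among the 5 libraries with the most, Klhl8 did not rise with the marker level. It was 10.39 in control replicate 2 (marker level 10.26) and 10.51 in Uba3 cKO replicate 4 (marker level 10.18). The coefficients of Klhl8 thus mainly contrast the libraries at the low and high ends. Over the 10 libraries Pearson r was 0.96 (permutation p = 2.0e-04, adjusted p = 0.044 over all genes and both marker levels) and Spearman rho 0.75 (permutation p = 0.018). Without the 2 libraries farthest from the median, r was 0.92. With any 1 library left out, and so 9 left, 0 members passed the adjusted threshold, and the call was also lost without the low-value filter and with median centring of the libraries. The adjustment over all genes was chosen after the counts under a narrower one had been seen.

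Klhl8 was the only member past that threshold, 1 of 60 (1.67%) against 0.481% of all genes. At an unadjusted permutation p under 0.05 were 11 members (18.3%), 4 positive and 7 negative, beside 16.8% of all genes, a share near that of the whole table. After Klhl8 the highest r belonged to Klhl32 (0.87, rho 0.81, adjusted permutation p = 0.068), Klhl35 (0.86, rho 0.83, adjusted permutation p = 0.086) and Kbtbd8 (0.80, rho 0.70, adjusted permutation p = 0.17). Klhl32 and Klhl35 are low genes, at 2.59 and 2.91 log2 units per kilobase, against 8.45 for Klhl8. KBTBD8 is an adaptor of neural crest specification, and its r without the 2 farthest libraries was 0.88. The most negative r were those of Klhl24 (-0.79, rho -0.72), a regulator of keratin turnover, Kctd20 (-0.78, rho -0.83), Klhl33 (-0.70, rho -0.60) and Kbtbd13 (-0.69, rho -0.61), with adjusted permutation p of 0.20, 0.18, 0.30 and 0.30. All 8 of these members kept the sign of r within each group of 5.

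**Figure D4:**
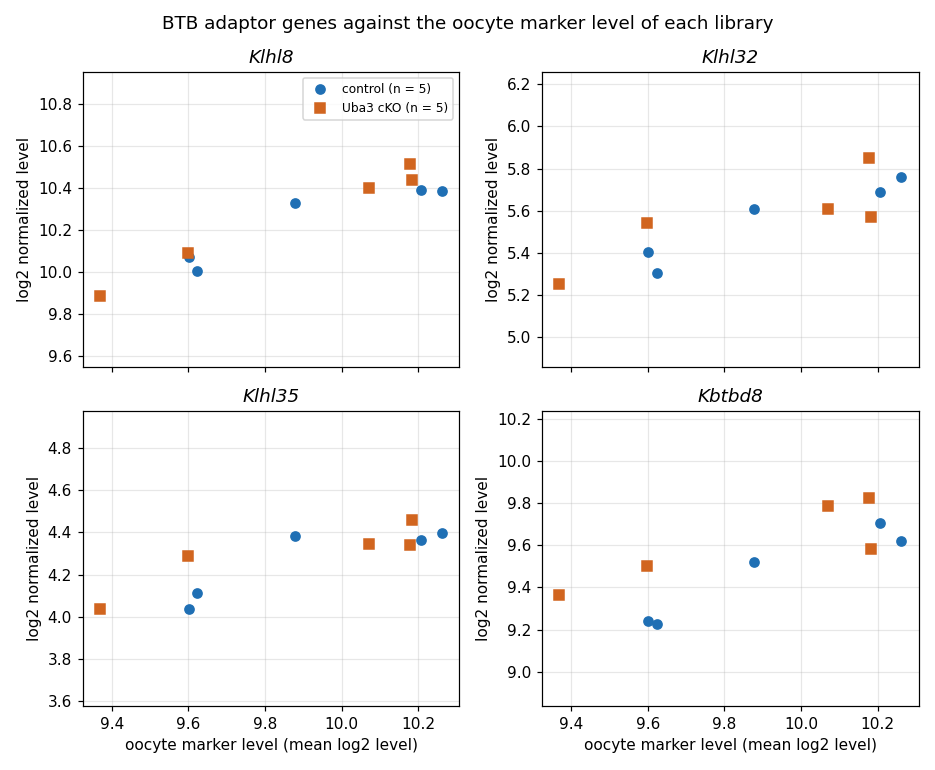
Log2 level of Klhl8, Klhl32, Klhl35 and Kbtbd8 (vertical axes, each spanning the same width) against the mean log2 level of 22 oocyte markers (horizontal axis) in 5 control (circles) and 5 Uba3 cKO (squares) libraries. In all 4 panels the libraries with marker levels of 9.37 to 9.62 lie below most of those from 10.07 to 10.26, in both groups.

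Stroma markers divided the libraries into 3 tight sets that cut across the genotypes. Their mean of 11 genes was 10.10 to 10.22 log2 units in control replicate 5 and Uba3 cKO replicates 3 and 5, 10.49 to 10.55 in control replicates 2, 3 and 4 and Uba3 cKO replicate 1, and 10.93 to 10.95 in control replicate 1 and Uba3 cKO replicates 2 and 4. Because of these separate sets no correlation coefficient is given. The oocyte level also lay mostly at its ends, with control replicate 5 alone between them, so its coefficients have a similar limit. Endothelium markers (7 genes) ran with the sets, from 7.15 to 7.19 in the low set and from 7.72 to 8.02 in the high set, and so did smooth muscle markers (8 genes), from 7.56 to 7.91 and from 8.25 to 8.46. The part of each cell type in the values below was not tested. Kctd12, which encodes a GABA-B receptor subunit, read 8.57, 8.61 and 8.57 in the low set, 9.02, 8.52, 8.92 and 8.99 in the middle set and 9.29, 9.37 and 9.52 in the high set. The high set lay above all other libraries, and control replicate 3 at 8.52 was the one library of the middle set below the low set. Kbtbd11 ran from 5.34 to 5.60 in the low set and from 5.80 to 6.06 in the high set, and Klhl25 from 8.96 to 9.06 and from 9.20 to 9.40. The middle set ran from 5.59 to 5.84 for Kbtbd11 and from 9.01 to 9.23 for Klhl25, overlapping both other sets. Kbtbd13 ran the other way, from 3.46 to 3.60 in the low set and from 3.17 to 3.29 in the high set. Its middle set, from 3.26 to 3.55, overlapped both. With a mean of 3.38 it lay close to the filter of 3.32 log2 units, and its high-set values lay below that. Klhl18 ran from 8.677 to 8.825 in the low set and from 8.818 to 8.972 in the high set, so these sets overlapped. Kctd6, Kctd20 and Klhl2 came next after Kbtbd13 at the negative end. Values of the low and high sets overlapped for Kctd6 and Klhl2. Those of Kctd20 did not, running from 11.03 to 11.05 in the low set and from 10.86 to 11.01 in the high set. The permutation test over all 10 libraries takes no account of the sets. After adjustment over all genes, 0 of 60 members passed for the stroma level (smallest adjusted permutation p = 0.072, Kctd12) against 0.538% of all genes. The plan had adjusted over the members and both marker levels, and 2 members passed that way. At an unadjusted permutation p under 0.05 stood 8 members (13.3%) beside 10.7% of all genes. Kctd12 and Kbtbd11 overlap Gm26778 and Gm37844 on the opposite strand. How reads in the shared bases were counted is not given in the sources used here.

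**Figure D5:**
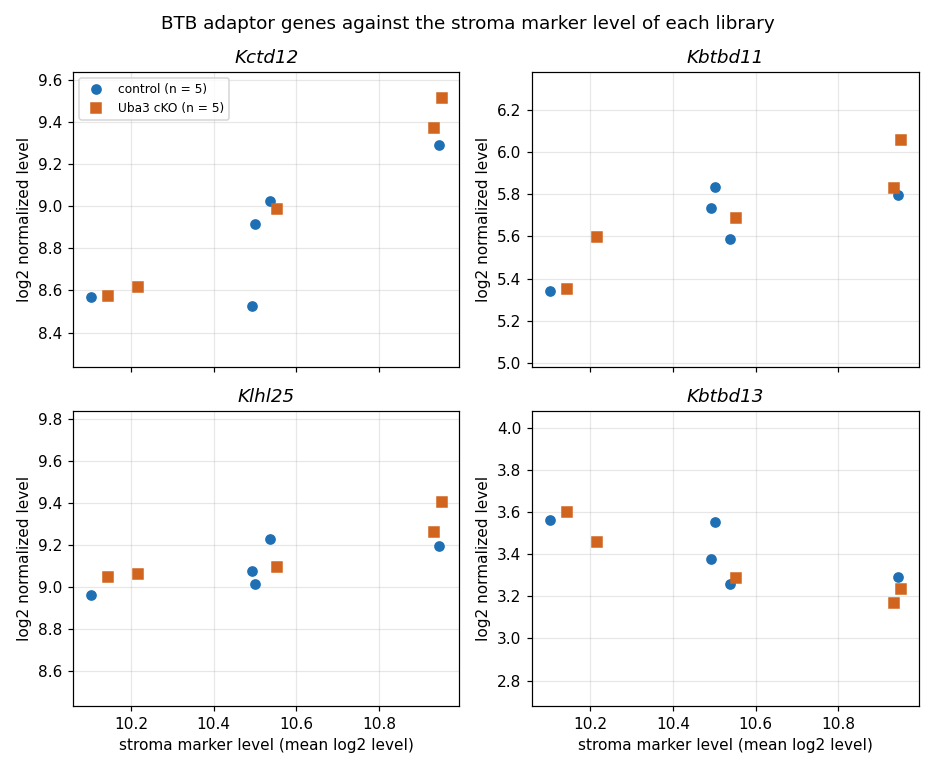
Log2 level of Kctd12, Kbtbd11, Klhl25 and Kbtbd13 (vertical axes, each spanning the same width) against the mean log2 level of 11 stroma markers (horizontal axis) in 5 control (circles) and 5 Uba3 cKO (squares) libraries. The libraries fall into 3 sets along the horizontal axis, and the high set, 10.93 to 10.95, has Kctd12 at 9.29 to 9.52.

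The widest spread over the 10 libraries after Klhl11 (SD 0.508) belonged to Kctd12 (0.365), Klhl33 (0.322), Klhl40 (0.266), Klhl42 (0.253) and Klhl31 (0.244). The median SD was 0.155 for the 60 members and 0.137 for all genes tested. Klhl33 ranged from 5.11 in control replicate 2 to 5.90 in control replicate 5, and both groups spanned most of that range. On the deposited scale Klhl10 varied little, with an SD of 0.0531 at a mean of 4.50. Other members near that level varied more, such as Klhl40 (SD 0.266 at 4.70) and Klhl35 (0.156 at 4.28). Since the transform is not named, the spread and differences of members with low levels may be understated.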

How the data were processed

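Total RNA of 10 whole ovaries was made into libraries with an Illumina TruSeq RNA kit, per the labels. The authors' deposited table gives normalized log2 values between -0.21 and 20.19 without naming the transform, so depth and counting error are unknown and no count test was made. Per the submitters' processing notes, fastp, STAR, featureCounts, DESeq2 and GRCm39 were used, and their versions, settings and strand setting are not given in the sources used here.

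The members and lists were chosen with earlier results of these data known. Symbols were found for 22188 of 22891 identifiers. The filter kept 15629 genes whose mean over the libraries reached 3.32 log2 units (10 unlogged). The comparison of groups used limma (3.58.1, R 4.3.3) with a mean-variance trend and without covariates, and p-values were adjusted by Benjamini-Hochberg over all genes kept, at a threshold of 0.05. The fit was tested on simulated data. Uba3 was compared by an exact permutation test.

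Marker levels are means of oocyte or stroma genes in a library. Correlations with them have permutation p-values from 100000 resamples. The plan adjusted these over the members and both marker levels. After the planned counts had been seen (3 members for oocyte, 2 for stroma), the adjustment was widened from the members to all genes. The report gives the wider one, again over both levels.

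Named members are the 6 with the smallest p in each direction, the 8 highest per kilobase, the 6 with the largest SD, the 4 highest and 4 lowest r per marker level, and examples of each role group and pathway list. Other members (Kctd6, Kctd21, Spopl and those in groups, for example) are named to complete a group or because they lie apart in a library. Exon lengths came from GENCODE M21 (GRCm38), promoters from RefSeq (GRCm38.p6), and transcripts were compared with blastn 2.17.0.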

Additional observations from a re-analysis of the deposited data

Results flagged for a closer look

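Among 120 pairs of a member and a group of 5 libraries, 8 (6.67%) held a library whose distance to its nearest neighbour exceeded Dixon's critical value for 5 values; chance alone gives about 5% of such pairs. Control replicate 3 was the library in 5 of the 8, each time the lowest. Klhl11 was at 7.254 there, with the other controls from 8.539 to 8.822. Klhl13 was at 9.421 (others 9.905 to 10.07), Spopl at 8.244 (8.731 to 8.923), Kctd3 at 10.47 (10.83 to 10.92) and Kctd20 at 10.76 (10.95 to 11.03). Kctd14 was high in control replicate 2, at 12.7 against 12.08 to 12.21, and Kctd21 in control replicate 1, at 7.115 against 6.848 to 6.905. Klhl31 was low in Uba3 cKO replicate 5, at 8.277 against 8.754 to 8.89.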

How the results depend on the processing

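In every alternative run, 0 members and 0 genes had an adjusted limma p under 0.05, and the differences of the 12 members named for their p kept their direction. With 1 library left out in turn, 28 of the 60 members changed the sign of their difference at least once, each with a difference of at most 0.061 log2 units in size (among them Kctd2, Kctd5, Kctd13, Kctd17, Kctd21 and Klhl2), and 32 kept it. The Uba3 difference, 0.0032 log2 units, changed sign without passing any threshold: -0.0020 with median centring, -0.0058 with the oocyte marker level as a covariate, -0.048 with library quality weights, and, with 1 library left out, from -0.056 when that was control replicate 3 to 0.066 when it was control replicate 4. Members at an unadjusted p under 0.05 numbered 4 with the oocyte covariate and 3 with quality weights, against 1. With 1 library left out they numbered 0 to 2. Of all 15629 genes tested, 458 had such a p with the oocyte covariate and 366 with quality weights, against 280. With 1 library left out, 199 to 392 genes did, so the counts over all genes moved as well. Same-numbered libraries showed no clear shared deviation (r from -0.27 to 0.28), though this check over all genes cannot exclude a pairing. With a replicate block 0 members were called, 1 had an unadjusted limma p under 0.05, and 311 genes did in place of 280. Members past the adjusted permutation p for the oocyte marker level, 1 as reported, numbered 3 with the planned adjustment over members, 0 with no filter, 0 with median centring, 2 with group means subtracted and 0 to 0 with 1 library left out. For the stroma level, 0 as reported, they numbered 2 with the planned adjustment and 1 with group means subtracted. The share of all genes is not given for these alternative marker runs, so their counts are not read as a trait of the members. The causes were not tested. Depth is unknown, so the counting error of members with low levels is unknown too.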
